A study of Mus musculus with 3 samples.

Results

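The glutathione and NRF2 antioxidant genes are 44 mouse genes whose products make, use and recycle glutathione, run the thioredoxin and peroxiredoxin cycles, remove superoxide and peroxide, or regulate these functions through the transcription factor NRF2. They were selected by name: every non-control probe whose gene name equalled one of the 44 was taken, and each gene was read from its brightest probe without an outlier flag, by the mean log2 processed signal over the 3 arrays. The array design held 37074 gene names, and 43 of the 44 genes had such a probe. The selection rule uses names only, and the list of names was drawn up with earlier results of these data known.

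The cells were mpkDCT, a mouse kidney line named for the distal convoluted tubule, with Cyp27b1 disrupted by CRISPR-Cas9. The product of Cyp27b1 adds a 1α-hydroxyl group to 25(OH)D3 (calcidiol) and so makes 1,25(OH)2D3 (calcitriol), which binds the vitamin D receptor far more tightly. The calcitriol cells were given 1,25(OH)2D3 and the calcidiol cells 25(OH)D3, both at 1e-07 M for 24 h, and the vehicle cells received no hormone. All 3 groups carried the knockout, were kept from 24 h before treatment in phenol red-free medium with 2% charcoal-stripped fetal bovine serum, and have a siCT tag in their titles of unexplained meaning. One description writes calcidiol as 25(OH)2D3, while the treatment label of the same sample reads 25(OH)D3. The sources used here do not say whether the knockout line was 1 clone. Each group had 1 array, so differences could be neither replicated nor tested. Values with ± carry the scanner software's own technical error of the spots (median 0.20 on the log2 scale), which leaves out variation between cultures. For bright spots this error was nearly constant (0.204 for each of Gclc, Gsr and Prdx1), so lying within it is close to a fixed cut in size.

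On the 3 arrays 49.7% to 51.0% of spots were well above background, the software's criterion for a detected spot. Cyp24a1, the 24-hydroxylase induced by the vitamin D receptor, had a processed signal of 5443 with calcitriol and 288 with calcidiol and was not well above background with vehicle. Cyp27b1 itself was undetected on every array, and its probe's place relative to the edited sequence is unknown, so it does not check the knockout. Of 10 distal convoluted tubule markers 5 were detected with calcitriol, 5 with calcidiol and 4 with vehicle, and Slc12a3, the thiazide-sensitive cotransporter that defines the segment, was detected on none. The renal tubule genes Cdh16, Pax2, Pax8 and Emx2 were detected on every array, whereas the epithelial genes Cdh1, Epcam, Krt8, Krt18 and Cldn8 were not. The macrophage markers Ptprc, Cd68, Csf1r and Itgam were also detected on every array. Of the 6 macrophage markers 4 were detected with calcitriol, 5 with calcidiol and 5 with vehicle. Their summed signal was 2803 with calcitriol, 3561 with calcidiol and 3172 with vehicle. Of the proximal tubule markers 3 of 6 were detected on each array, with a summed signal of 5991 with calcitriol, 4829 with calcidiol and 3272 with vehicle. These 3 did not move together: with each hormone 1 lay above vehicle and 2 lay below it. With calcitriol 1 was at least 2-fold higher. Of the collecting duct, fibroblast and endothelium markers 1 each (of 6, 6 and 5) was detected on each array. The fibroblast marker Col1a1 had log2 differences from vehicle of -1.28 (calcitriol) and -0.78 (calcidiol), the endothelium marker Kdr of -0.86 and -0.32, and the collecting duct marker Aqp2 of -0.48 and -0.46. Summed fibroblast signals were 126 with calcitriol, 182 with calcidiol and 265 with vehicle, those of endothelium 81.8, 126 and 137, and those of collecting duct 96.2, 99.6 and 118. The part of these markers in the results below was not tested, and in RNA of a whole culture fewer cells of a type and less RNA per cell cannot be told apart.

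NRF2, encoded by Nfe2l2, is a basic leucine zipper factor that KEAP1 holds for degradation in unstressed cells. Electrophiles and oxidants modify KEAP1, NRF2 accumulates, pairs with small MAF proteins and binds antioxidant response elements beside genes for glutathione synthesis, conjugation, thiol reduction and NADPH supply. Glutathione itself is made in a pair of steps, of which glutamate-cysteine ligase (GCLC with GCLM) is rate-limiting, and glutathione reductase (GSR) restores its reduced form with NADPH. Kidney tubule cells carry a heavy oxidative load and use much glutathione.

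The short core of the antioxidant response element, TGACNNNGC, was looked for on both strands of RefSeq promoters (assembly GRCm38.p6, 250 bases before to 50 after each start). Of the 44 genes, 38 had a promoter in that table, and 11 of these (28.9%) held the core, against 14.0% of 27025 genes. Counted by promoter, 11 of their 46 held it, against 12.4% of 32851. A gene with several promoters has more chances of a match. The 6 genes without a promoter there are Gclc, Gsr, Gsta4, Hmox1, Prdx6 and Sod3. A direct repeat of vitamin D receptor type (DR3) was in none of the 38 and in 0.0444% of all genes. A match is a description of letters and not a bound site, and the absence of one says only that the letters are not in this window. The windows below are shown for the regulator, for the partner subunit of GCLC, and for 4 genes whose differences are among the larger ones described here. Each is 30 bases on the strand of the gene, 5′ to 3′, with the core in capitals, read as TGACNNNGC or as its reverse complement GCNNNGTCA.
Nfe2l2, chr2:75704884-75704913, minus strand: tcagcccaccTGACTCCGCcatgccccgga
Gclm, chr3:122245413-122245442, plus strand: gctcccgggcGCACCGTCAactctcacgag
Gstm5, chr3:107895802-107895831, plus strand: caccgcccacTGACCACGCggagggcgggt
Srxn1, chr2:152105542-152105571, plus strand: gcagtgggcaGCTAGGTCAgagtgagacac
Prdx1, chr4:116685456-116685485, plus strand: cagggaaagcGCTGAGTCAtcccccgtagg
Pgd, chr4:149166060-149166089, minus strand: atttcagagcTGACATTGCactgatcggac

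The core began 240 bases before the start of Nfe2l2, 134 before that of Gclm, 133 before that of Prdx1 and 42 before that of Gstm5, and it lay downstream of the start in Srxn1 and Pgd. Gsta3, Mgst1, Txnrd1, Sod1 and G6pdx also held it. Among the 10 core-bearing genes that were measured, the log2 difference of calcitriol from vehicle ran from -0.41 to 0.42 with 5 above and 5 below 0. Among the 21 measured genes with a promoter but no core it ran from -0.35 to 0.21, with 10 above and 11 below. For calcidiol the 10 core-bearing genes ran from -0.34 to 0.19, with 2 above and 8 below 0 and a median of -0.11. The 21 without the core ran from -0.38 to 0.21, with 11 above and 10 below and a median of 0.00. Of all gene names 50.8% lay below 0 with calcitriol and 52.3% with calcidiol. Genes without a promoter entry are in neither set, among them Gclc (-0.64 with calcidiol) and Gsr (0.54 with calcidiol). The gap between the calcidiol medians was not tested, and the technical error of a spot does not measure it.

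Of the 43 genes with a usable probe, 36 (83.7%) were well above background on all 3 arrays, against 45.0% of 36403 gene names. Gpx3, Gpx7, Gsta2, Gstt1, Mgst1, Nqo1 and Sod3 were undetected on every array, with signals of 2.64 to 9.17. Detection on both arrays was required for a difference, so the counts below describe 36 genes and not all 44. The only probe of Mgst2, a microsomal glutathione transferase, was flagged as an outlier on the calcidiol array and lies in the outermost row or column of spots, and its signals of 120.0 with calcitriol, 157.4 with calcidiol and 90.4 with vehicle were left out.

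**Figure D1:**
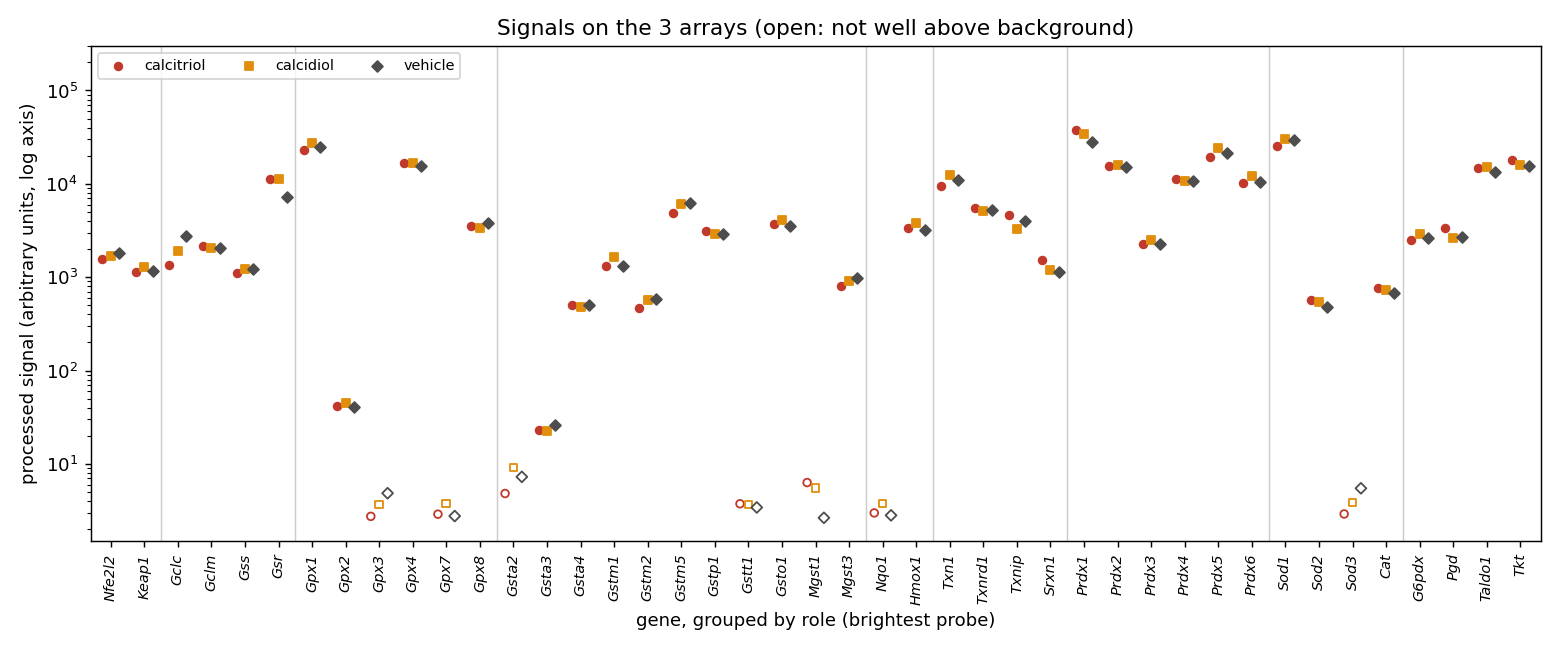
Processed signal (arbitrary units, log axis) of the brightest probe of 43 genes with calcitriol (circles), calcidiol (squares) and vehicle (diamonds), 1 array each, grouped by role. Open symbols mark the 7 undetected genes, and heights of different genes cannot be compared because each has its own probe.

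Most of these genes differed little between the hormones and vehicle. Gclc was the only one at least 2-fold apart in any comparison, and it was lower with calcitriol. Gsr was higher with both hormones by about 1.5-fold. None of the 36 genes was at least 2-fold higher with calcitriol than with vehicle, against 0.966% of 16671 gene names, and 1 was at least 2-fold lower, against 1.63%. With calcidiol none of the 36 was at least 2-fold higher or lower, against 0.852% and 0.144% of 16664 gene names. These counts are near the shares over all genes.

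At a size of 1.5-fold, Gsr was higher and Gclc lower with calcitriol, against 3.38% and 6.26% of gene names, and Gclc alone was lower with calcidiol, against 1.33%, while none of the 36 was higher, against 2.84%. Gsr did not reach 1.5-fold with calcitriol under cyclic loess and normexp and passed it with calcidiol under normexp, and Mgst2 passed it with calcidiol where flagged spots were kept. The median log2 difference over the 36 was -0.02 with calcitriol and -0.05 with calcidiol, beside medians of all gene names of -0.005 and -0.01. For 24 of the 36 (66.7%) the difference of calcitriol from vehicle was within the technical error of the spot, as it was for 57.5% of gene names. For calcidiol this held for 29 of 36 (80.6%) and for 71.0% of gene names. Both comparisons use the same vehicle array, so a gene that happened to read high or low there moves the same way in both.

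**Figure D2:**
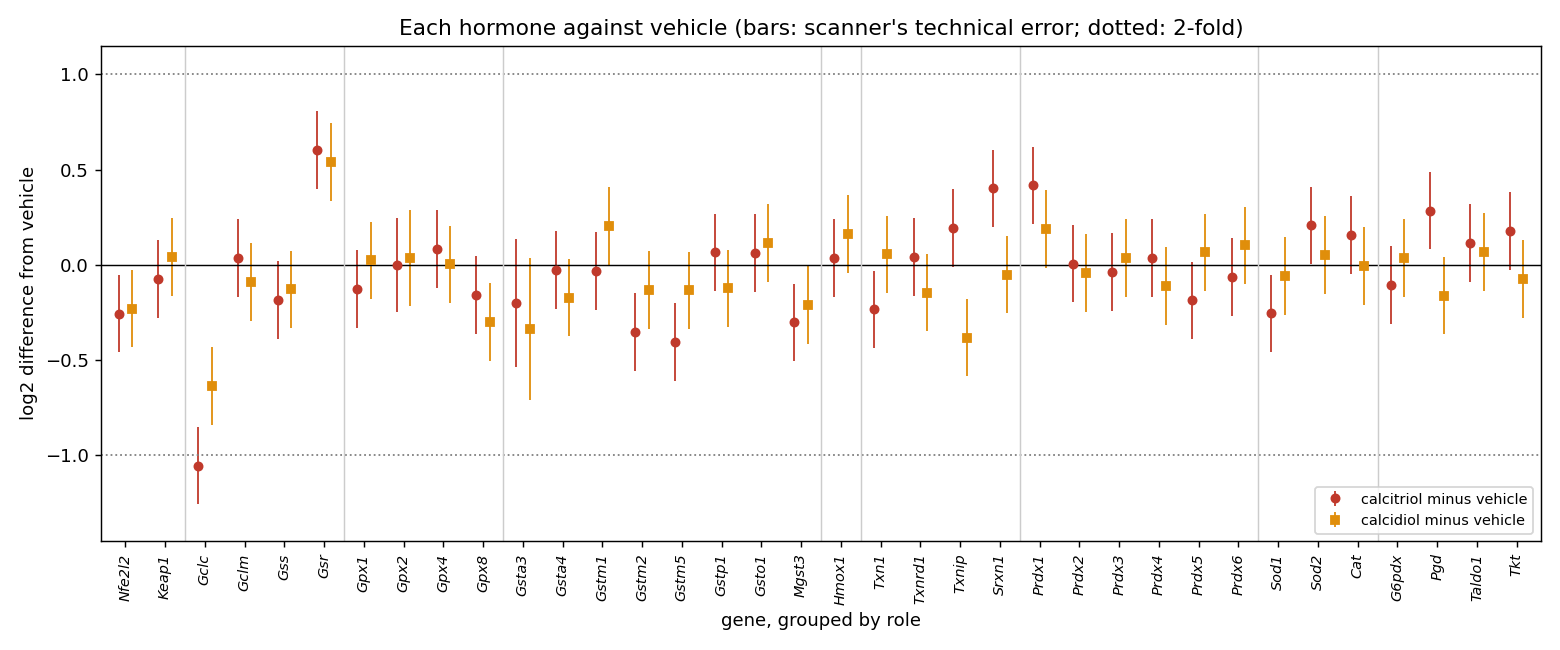
Log2 difference from vehicle of the 36 measured genes with calcitriol (circles) and calcidiol (squares), grouped by role. Bars are the scanner software's technical error and dotted lines mark 2-fold: only Gclc with calcitriol passes one, at -1.05, and Gsr lies highest for both hormones.

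The regulators differed little from vehicle. Nfe2l2 had processed signals of 1564 with calcitriol, 1681 with calcidiol and 1826 with vehicle. The calcitriol and calcidiol readings were the lower ones, with differences of -0.26 ± 0.20 and -0.23 ± 0.20 on the log2 scale. Its other probe, which carries a different transcript accession, gave 0.09 and -0.14. Keap1, the substrate adaptor that targets NRF2 for degradation, read 1136, 1297 and 1168 in the same order. These differences of -0.07 and 0.04 were within the technical error.

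The 4 genes of glutathione synthesis and recycling had no common direction. Gclc, the catalytic subunit of glutamate-cysteine ligase, had processed signals of 1349 with calcitriol, 1904 with calcidiol and 2739 with vehicle. The 3 readings were well separated, with calcitriol lowest and vehicle highest. The log2 difference from vehicle was -1.05 ± 0.20 with calcitriol (2.08-fold lower) and -0.64 ± 0.20 with calcidiol (1.55-fold lower), and 1.38% and 0.98% of gene names lay lower. The markers Col1a1, Kdr and Aqp2 lay in the same order over the arrays. So did the summed signal of the renal tubule epithelium markers, at 16671 with calcitriol, 18089 with calcidiol and 19867 with vehicle. Of the 5 measured, however, 3 lay above vehicle with calcitriol and 2 with calcidiol. The summed distal convoluted tubule signals (6456, 6438 and 6637) were not in that order. The part of these markers in the Gclc difference was not tested. Gclc has 1 probe on the array (chr9:77641296-77641355 on mm9), so no other probe checks it. Over 13 alternative ways of processing, its difference ran from -1.08 to -0.93 with calcitriol and from -0.70 to -0.60 with calcidiol. Settings that only drop or add genes or probes cannot move a gene with 1 detected probe away from the edge. All 13 reuse the same 3 readings.

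Gclm, the modifier subunit that works with GCLC, had nearly equal signals of 2139 with calcitriol, 2066 with calcidiol and 2038 with vehicle. Its differences of 0.04 ± 0.20 and -0.09 ± 0.20 were within the technical error, so the subunits of the enzyme read differently on these arrays. Gss, glutathione synthetase, which adds glycine in the second step, read 1106, 1215 and 1230, with differences of -0.19 ± 0.20 and -0.13 ± 0.20, and 0.14 and -0.06 by its other probe. Gsr, glutathione reductase, had signals of 11205 with calcitriol, 11332 with calcidiol and 7212 with vehicle. The hormone arrays were alike and both above vehicle, by 0.60 ± 0.20 (1.52-fold) and 0.54 ± 0.20 (1.45-fold). Its only probe (chr8:34808488-34808547 on mm9) lies in the 4th row or column from the array edge, where spots varied more between arrays. Its detected neighbours within 10 rows and columns had median differences of -0.01 and 0.03, and the part of its position in the difference was not tested.

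Of the 6 glutathione peroxidases, enzymes that reduce peroxides with glutathione, 4 were measured. Gpx1, the abundant cytosolic form, differed from vehicle by -0.13 with calcitriol and 0.02 with calcidiol. Gpx4, which reduces lipid peroxides in membranes, differed by 0.08 and 0.00. Gpx2 differed by 0.00 and 0.04, at low signals of 41.8 with calcitriol, 45.3 with calcidiol and 40.9 with vehicle. All 3 were within the technical error. Gpx8, an endoplasmic reticulum member, had signals of 3519 with calcitriol, 3368 with calcidiol and 3843 with vehicle, and its log2 difference passed the error only with calcidiol (-0.30 ± 0.20, against -0.16 ± 0.20 with calcitriol). Gpx3, the form secreted by proximal tubule cells, and Gpx7 were not detected.

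Glutathione transferases couple glutathione to electrophiles, and 8 of the 12 were measured. With each hormone 6 of the 8 lay below vehicle, with medians of -0.12 for calcitriol and -0.13 for calcidiol, where 50.8% and 52.3% of all gene names lay below 0. The calcitriol median ran from -0.23 to 0.01 over the alternatives, so its sign depends on the scaling. Gstm5 had signals of 4827 with calcitriol, 6151 with calcidiol and 6252 with vehicle. The calcitriol array was the low one (-0.41 ± 0.20, against -0.13 ± 0.20 for calcidiol), and the gene's other probe gave a smaller difference of -0.16. Gstm2 had signals of 467, 575 and 583 in the same order and differed by -0.35 ± 0.20 and -0.13 ± 0.20. Mgst3, a microsomal member, had signals of 805, 906 and 971 and log2 differences of -0.30 ± 0.20 and -0.21 ± 0.20. Gsta3, Gsta4, Gstp1 and Gsto1 lay within the technical error of vehicle in both comparisons, and Gsta3 had low signals of 23.3, 22.4 and 26.2. The other probe of Gsto1 gave 0.08 and -0.14.

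Probes of Gstm1 disagreed. The brightest, with signals of 1333 with calcitriol, 1658 with calcidiol and 1332 with vehicle, which the array annotation places at chr5:117082490-117082549 on mm9, gave -0.03 with calcitriol and 0.21 with calcidiol. The other, at chr3:107815595-107815654 on chromosome 3, where the Gstm2 and Gstm5 probes also lie, gave -0.49 and -0.09. Since the mu class genes (Gstm1 to Gstm7) are related paralogs, the 4 others were set beside these, a grouping made after their values were seen. Gstm3 had signals of 1690 with calcitriol, 2499 with calcidiol and 2412 with vehicle, a calcitriol difference of -0.55 ± 0.20. Gstm4 (-0.60 ± 0.21) and Gstm6 (-0.56 ± 0.22) lay at similar calcitriol differences. Gstm7 differed by -1.06 ± 0.32 at signals of 18.9, 34.1 and 38.6, near the lowest detected signals of the arrays.

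All 7 mu class genes were thus below vehicle with calcitriol, at a median of -0.55, and 6 of 7 were below it with calcidiol, at a median of -0.13, beside the 50.8% and 52.3% of all gene names given above. The calcitriol median ran from -0.55 to -0.32 over the alternatives, and Gstm1 crossed to the other side of 0 when arrays were scaled on their medians. Cross-hybridisation between the paralogs was not tested, nor was it between Gstp1 and its copy Gstp2.

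**Figure D3:**
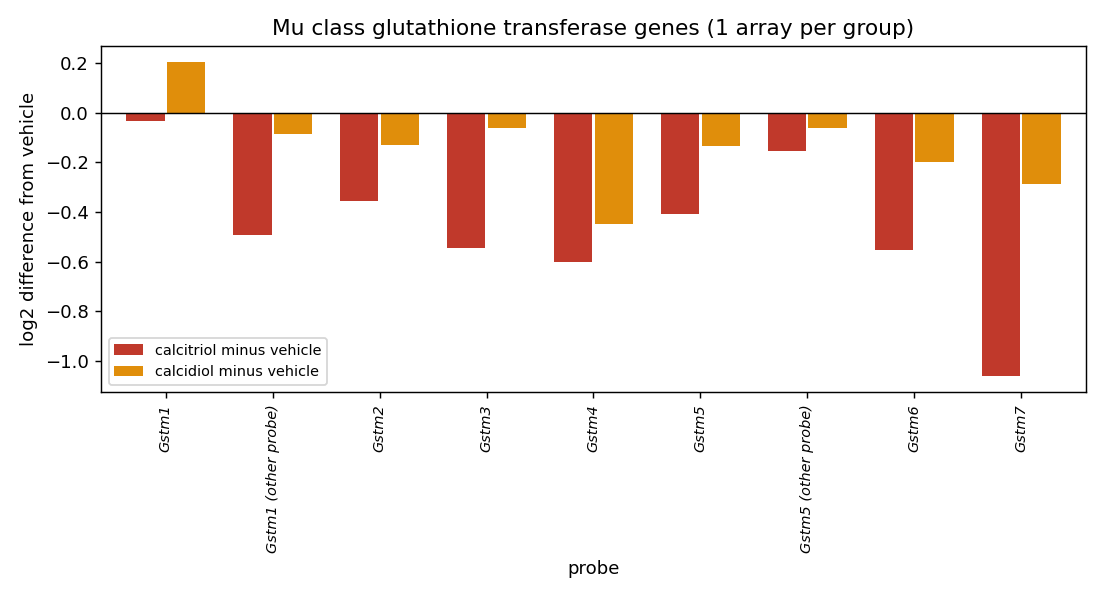
Log2 difference from vehicle with calcitriol (left bar of each pair) and calcidiol (right bar) for probes of 7 mu class glutathione transferase genes, 1 array per group and no error drawn. All detected probes are drawn for Gstm1, Gstm2 and Gstm5, and only the brightest probe each for Gstm3, Gstm4, Gstm6 and Gstm7. Calcitriol bars lie below 0 for every probe shown, from -1.06 for Gstm7 to -0.03 for the brightest Gstm1 probe.

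The classical NRF2 targets Nqo1 and Hmox1 could be compared in only 1 case. Nqo1, NAD(P)H quinone dehydrogenase, had signals of 2.98 with calcitriol, 3.76 with calcidiol and 2.81 with vehicle. All 3 lay under the lowest detected signals of the arrays (13.8, 17.9 and 13.4), so no difference is given. Hmox1, the inducible heme oxygenase that degrades heme, had signals of 3322, 3831 and 3168. Its differences of 0.04 ± 0.20 and 0.16 ± 0.20 were within the technical error.

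The 4 genes of the thioredoxin system had no common direction. Srxn1, sulfiredoxin, which repairs over-oxidised peroxiredoxins, had signals of 1538 with calcitriol, 1186 with calcidiol and 1138 with vehicle. Only the calcitriol array stood apart, at 0.40 ± 0.20, against -0.05 ± 0.20 for calcidiol. Its spot lies in the 5th row or column from the array edge, and normexp background correction with quantile normalisation brought the calcitriol difference to 0.18. Txnip, which binds and inhibits thioredoxin and restrains glucose uptake, had signals of 4626, 3275 and 3954. Calcitriol was above vehicle by 0.19 ± 0.20 and calcidiol below it by -0.38 ± 0.20, whereas its dimmer probe gave 0.05 and -0.08. Txn1, thioredoxin, had signals of 9575, 12340 and 11005 and differed by -0.23 ± 0.20 and 0.05 ± 0.20. Txnrd1, the reductase that restores it with NADPH, differed by 0.04 and -0.15, whereas its other detected probe gave -0.24 and -0.32.

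Peroxiredoxins reduce peroxides through thioredoxin, and 5 of the 6 stayed within the technical error in both comparisons. Prdx1 had signals of 38072 with calcitriol, 34306 with calcidiol and 27865 with vehicle, and was above vehicle by 0.42 ± 0.20 with calcitriol and 0.19 ± 0.20 with calcidiol. Its 2 other detected probes gave 0.24 and 0.21 with calcitriol. Detected spots around the brightest probe had a median calcitriol difference of 0.10. The remaining 5 differed by -0.19 to 0.03 with calcitriol and by -0.11 to 0.10 with calcidiol. Other probes of Prdx2, Prdx5 and Prdx6 gave -0.14 to 0.11 with calcitriol and -0.01 to 0.02 with calcidiol.

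Among superoxide dismutases and catalase, Sod1, the cytosolic copper-zinc enzyme, had signals of 25183 with calcitriol, 30472 with calcidiol and 29380 with vehicle, and the calcitriol array was the low one at -0.26 ± 0.20. Its other, dimmer probe gave -0.22 with calcitriol and -0.25 with calcidiol. Sod2, the mitochondrial manganese enzyme, read 572, 542 and 485, a calcitriol difference of 0.21 ± 0.20. Cat, catalase, read 767, 722 and 672, at 0.16 ± 0.20. For calcidiol the brightest probes of all 3 lay between -0.06 and 0.05. The directions of the dismutases were thus opposed with calcitriol, by sizes close to the technical error.

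The pentose phosphate enzymes supply NADPH to glutathione and thioredoxin reductases. Pgd, 6-phosphogluconate dehydrogenase, had signals of 3392 with calcitriol, 2627 with calcidiol and 2721 with vehicle. Calcitriol stood above the others, at 0.28 ± 0.20, against -0.16 ± 0.20 for calcidiol, on a spot in the 6th row or column from the edge. G6pdx, the first enzyme of the pathway, had signals of 2484, 2888 and 2610 and differed by -0.10 ± 0.20 and 0.04 ± 0.20. Tkt and Taldo1, of the non-oxidative branch, differed by 0.18 and 0.11 with calcitriol and by -0.07 and 0.07 with calcidiol, all within the technical error. The other detected probe of Taldo1 gave 0.41 and 0.12, with signals of 5541 with calcitriol, 4801 with calcidiol and 4087 with vehicle.

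Calcitriol was next set directly against calcidiol at the same dose and time, 1 of 3 pairs of groups compared. Calcitriol carries a 1α-hydroxyl group that calcidiol lacks. None of the 36 genes was at least 2-fold higher or lower, against 0.466% and 1.4% of 16517 gene names, and none passed 1.5-fold, against 2.16% and 5.55%. The count higher by 1.5-fold depended on the processing: with arrays scaled on their medians Txnip (0.76), Srxn1 (0.64) and Pgd (0.63) passed it, and with normexp background correction Txnip alone did. Txnip was the highest, at 0.58 ± 0.20 by its brightest probe and 0.14 by its other probe. Srxn1 (0.45 ± 0.20) and Pgd (0.45 ± 0.20) followed, and Srxn1 came to 0.17 with normexp background correction. Gclc was the lowest, at -0.42 ± 0.20. Gclc lay between -0.47 and -0.24 over the 13 alternatives, several of which cannot move it, as said above.

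The other differences between the compounds were smaller, from -0.29 ± 0.20 for Txn1 to 0.25 ± 0.20 for Tkt, and 18 of the 36 genes were above and 18 below 0. For 25 of the 36 the difference was within the technical error, among them Gsr (0.06 ± 0.20), Gclm (0.13 ± 0.20), Nfe2l2 (-0.03 ± 0.20) and Hmox1 (-0.13 ± 0.20), and for 60.0% of gene names. This interval covers the reading of the spots only, so it does not show that the compounds act alike on these genes. Prdx1 stood at 0.23 ± 0.20 and at -0.08 after centring on its neighbouring spots, a step chosen after the data were seen.

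**Figure D4:**
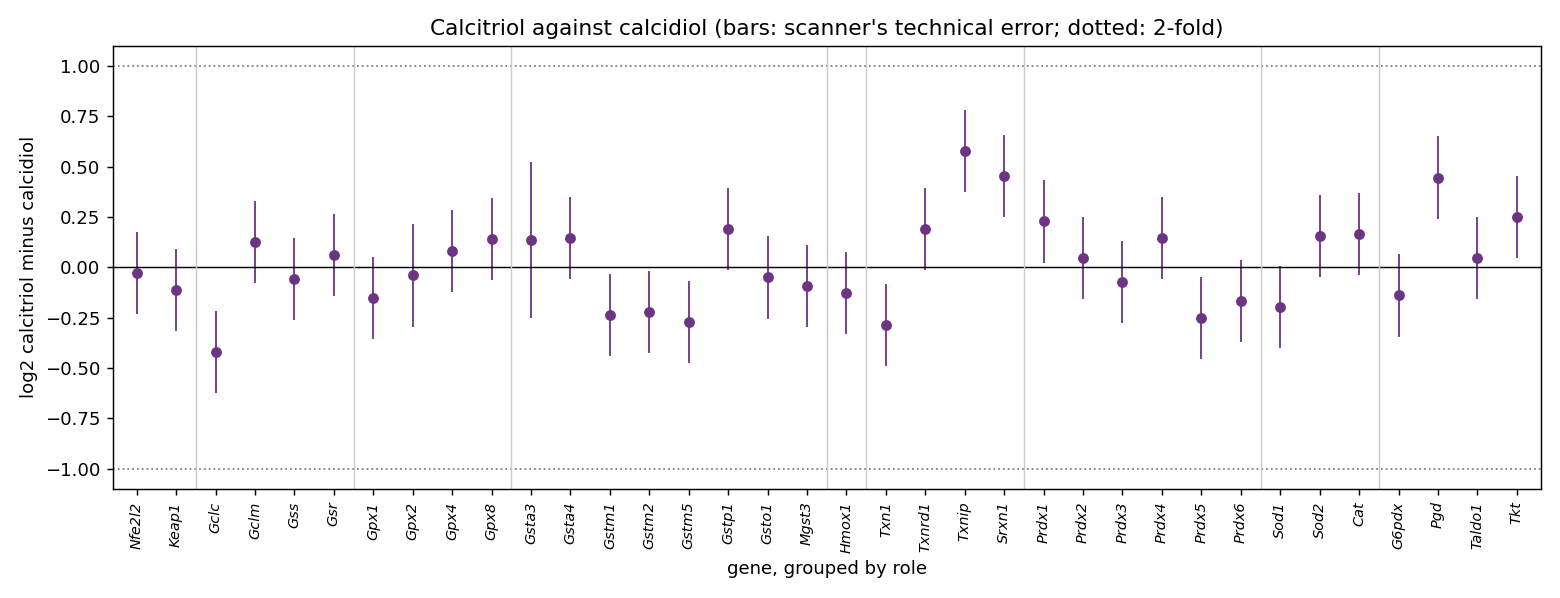
Log2 difference of calcitriol from calcidiol for the 36 measured genes, grouped by role, with the scanner software's technical error as bars and dotted lines at 2-fold. No gene reaches 2-fold: Txnip is highest at 0.58 and Gclc lowest at -0.42.

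Other genes of the pathway were taken from 5 lists of 88 genes, of which 75 were measured for calcitriol against vehicle, 76 for calcidiol against vehicle and 75 for the direct comparison. Ggt1, γ-glutamyltransferase, the surface enzyme that starts glutathione breakdown, was the only one at least 2-fold higher. Its signals were 383 with calcitriol, 158 with calcidiol and 123 with vehicle. Calcitriol stood far above the others, at 1.60 ± 0.21 against vehicle (3.04-fold) and 1.35 ± 0.21 against calcidiol (2.55-fold), while calcidiol differed from vehicle by 0.25 ± 0.21. Over 12 alternatives the calcitriol difference from vehicle ran from 1.19 to 1.73, and that from calcidiol was under 2-fold in 1 of 12.

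Gstm7, given above, was the only measured one at least 2-fold lower with calcitriol than with vehicle. The call did not hold in 6 of 11 alternatives, over which its difference ran from -1.06 to -0.32. Aldh3a1, an aldehyde dehydrogenase that NRF2 can induce, was not well above background with calcitriol (9.80) and had signals of 76.8 with calcidiol and 40.9 with vehicle. Calcidiol was above vehicle by 0.80 ± 0.24. The gene was at least 3.03-fold lower with calcitriol than with vehicle and at least 5.27-fold lower than with calcidiol, each bound set by the lowest detected signal, on a spot in the 2nd row or column from the edge. None of the 76 was at least 2-fold apart between calcidiol and vehicle.

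By list, 18 of 21 NRF2 targets outside the 44 lay below vehicle with calcitriol, at a median of -0.14, and 14 of 22 with calcidiol, at a median of -0.06, against 50.8% and 52.3% of all gene names. The calcitriol count depends on scaling: between 3 and 10 of them lay above 0 over the alternatives, though the median stayed below 0 (-0.18 to -0.02). Genes of glutathione breakdown, transport and further transferases or peroxidases lay below vehicle in 12 of 17 with calcitriol, at a median of -0.31, and in 11 of 17 with calcidiol, at a median of -0.09. This list holds 4 of the mu class genes described above. The 10 NRF2 and KEAP1 partners had medians of 0.08 and 0.06, and the 16 thioredoxin, glutaredoxin and repair genes 0.08 and -0.03. For the 11 NADPH supply and superoxide genes they were 0.02 and 0.05. The technical error of a spot is not the error of a median over genes, and none of these medians was tested.

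Probes of the same gene give a further measure of error. For 13 of the 36 genes 14 other probes were detected, and their calcitriol difference from vehicle lay a median of 0.19 from that of the brightest probe and at most 0.46 from it, for Gstm1. For calcidiol the median gap over 15 other probes of 14 genes was 0.13 and the largest 0.67, for Gsta3, whose other probe gave 0.33 against -0.34 at low signals. Spots in the outermost 6 rows and columns varied more than the others: their calcitriol differences had an SD of 0.50, against 0.37 for inner spots, and 5.61% of them passed 2-fold, against 2.08%. For calcidiol the SDs were 0.38 and 0.27. Of the 36 genes Gsr, Srxn1 and Pgd lie in that outer band, and Gclc does not.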

How the data were processed

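The deposited scanner files give spot intensity on a linear scale for 1 Cy3 channel. Background had been subtracted and probes placed on mm9 by Agilent Feature Extraction, version 10.7.1.1 per the file headers and 9.5.1.1 per the submitters' processing notes. All 3 arrays lay on 1 slide, so position on the slide and group cannot be told apart. The authors' value table, also of linear intensity, was an alternative only. Controls were left out, as were probes flagged as outliers on any array (1489 of 56605). From the log2 processed signal the 75th percentile of each array over non-control spots was subtracted (380 for calcitriol, 401 for calcidiol, 371 for vehicle). A difference needed a probe well above background on both arrays, and otherwise a bound was set. No test was run. A gene was counted at 2-fold, a size also taken at 1.5-fold and 3-fold. Of 300 probes printed 10 times, 287 with calcitriol, 285 with calcidiol and 285 with vehicle had every copy well above background. The median coefficient of variation between copies of these probes was 9.76% with calcitriol, 3.76% with calcidiol and 7.37% with vehicle. Counting was tested on simulated data. Python 3.11.15, numpy 2.4.6, pandas 2.3.3, matplotlib 3.10.9, R 4.3.3 and limma 3.58.1 were used. The 44 genes, the lists and the alternatives were chosen with earlier results of these data known. The rule named all 44 genes, other pathway genes at least 2-fold apart, and Cyp24a1 and Cyp27b1. Gstm3, Gstm4, Gstm6 and marker genes are named beside them. RefSeq accessions gave the same symbol for 42 of 43 brightest probes.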

Additional observations from a re-analysis of the deposited data

How the results depend on the processing

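No paired analysis was possible because each group had 1 array and the labels give 1 number to all. Scaling arrays on their medians moved the median of all gene names by 0.12 for calcitriol against vehicle and 0.18 for calcitriol against calcidiol, and with it the median of the 36 genes to 0.11 and to 0.19. Relative to all genes those medians stayed at -0.01 and 0.01. Under that scaling 0 genes of the 36 were at least 2-fold lower with calcitriol than with vehicle, because Gclc came to -0.93. It also moved the split of all gene names at least 2-fold higher and lower to 223 and 183, against 161 and 271 as reported, and for calcitriol against calcidiol to 133 and 133, against 77 and 232. At 1.5-fold, 1 gene was higher with calcitriol and 1 lower with calcidiol than with vehicle, and at 3-fold 0 genes were lower with calcitriol. The count of 0 at 1.5-fold higher for calcitriol against calcidiol became 3 with median scaling and 1 with normexp. Of 463 values of single genes under the alternatives in each comparison, 2 moved beyond the technical error for calcitriol against vehicle, 0 for calcidiol against vehicle and 4 for calcitriol against calcidiol. Those were Gstm1 (-0.26 as the mean over probes), Srxn1 (0.18 and 0.17 with normexp), Txnip (0.36 as the mean over probes) and Prdx1 (0.00 with normexp and -0.08 centred on neighbouring spots). Many of the 463 values could not move, because settings that only drop or add genes or probes leave most brightest probes unchanged. The small counts of moved values are thus partly fixed by the settings. Leaving out a replicate was not possible. Signal over background limits the 7 undetected genes, Gsta3, Gpx2 and Gstm7.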
